A study of Mus musculus with 8 samples.

Results

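The 10 genes described here encode the core proteins that fuse, divide and build mitochondria: Mfn1, Mfn2, Opa1, Dnm1l, Fis1, Mff, Ppargc1a, Ppargc1b, Tfam and Nrf1. They were taken by name from the 22180 genes that had at least 1 probe set with a single gene symbol in the array's annotation, and each of the 10 had exactly 1 such probe set. Expression was measured in AML12 cells, a line of mouse hepatocytes. In the knockout group the VWA8 gene (Vwa8), which encodes a mitochondrial protein with an ATPase domain, had been deleted with CRISPR/Cas9, and the wild-type group carried the intact gene. After differentiation, RNA from 4 separate cultures of each genotype was read on Affymetrix mouse arrays, 1 array per culture. Both groups had been grown in the same medium with 10% serum, 0.005 mg/ml insulin, transferrin, selenium and 40 ng/ml dexamethasone, a synthetic glucocorticoid. The number of knockout clones was not given in the sources used here, and the deletion and a difference between clones cannot be told apart. The design text calls the cultures separate and says no more, so p-values measure the spread between these cultures.

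Mitochondria form a network whose shape is set by the balance of fusion and fission. The mitofusins MFN1 and MFN2 join outer membranes and OPA1 joins inner membranes, while the dynamin DRP1, encoded by Dnm1l, constricts the organelle after it is recruited by adaptors such as MFF and FIS1. New mitochondria depend on the coactivators PGC-1alpha (Ppargc1a) and PGC-1beta (Ppargc1b), which act through transcription factors including nuclear respiratory factor 1 (Nrf1), and on TFAM, which packages mitochondrial DNA and starts its transcription. In hepatocytes PGC-1alpha is also known for the fasting response.

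Array values are on a log2 scale, on which a difference of 1 is a doubling. The 8 array medians ran from 4.27 to 4.33, and the number of arrays limits the precision of every value. Vwa8 itself read from 8.91 to 9.01 on the wild-type arrays and from 5.07 to 5.33 on the knockout arrays, with an exact two-sided permutation p of 0.0286, the smallest that 4 arrays against 4 allow. The 9 measured hepatocyte markers were brighter than the median gene, Alb among them at 12.84 and 13.07 in the 2 groups. Their summed linear signal moved with genotype, from 25716 to 26307 on wild-type arrays and from 30444 to 31698 on knockout arrays. It rests mostly on the brightest of them, Alb and Ttr, which rose 1.17-fold and 1.18-fold. Of the 9 markers 7 were higher and 2 (Krt8 and Krt18) lower in the knockout. The part of this shift in the results was not tested. Of 19 markers of stellate cells, leukocytes and endothelial cells, none passed the threshold, and the leukocyte marker Ptprc read 2.84 and 2.73. Only 1 of 8 stellate, 1 of 6 leukocyte and 0 of 5 endothelial markers were brighter than the median gene. Dim genes pass less often, so these markers cannot tell whether such cells changed. For 5 markers of bile duct cells and progenitors the summed signal overlapped between the groups, from 1537 to 1631 in wild type and from 1514 to 1635 in knockout. This sum rests mostly on the brightest marker, Sox9, and says little about the dimmer ones. Sox9 read 10.07 and 10.18 and did not pass, although its groups did not overlap. Krt7 and Cftr were lower in the knockout.

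Of the 10 genes, 5 passed the limma test at a threshold of 0.05, with p-values adjusted by Benjamini-Hochberg over all 22180 genes. Mfn1, Mff and Ppargc1b rose in the knockout, and Fis1 and Nrf1 fell. Mfn2, Opa1, Dnm1l, Ppargc1a and Tfam did not pass. Over all genes 20.9% passed, 10.4% higher and 10.4% lower. Because dim genes pass less often and all 10 genes were brighter than the median gene, the closer background is the 37% that passed among the 11090 genes brighter than the median. The 4 knockout arrays all lay on one side of the 4 wild-type arrays for the same 5 of the 10 genes, against 26.1% of all genes and 46.4% of the brighter ones. Both counts, 5 of 10, are above the shares of all genes and closer to those of the brighter genes. The changes were small: the largest, of Mfn1, was 1.37-fold, and the median change over the 10 genes was 0.07 on the log2 scale against -0.003 over all genes. Each array read the RNA of a whole culture, so a change in every cell and a change in some of the cells cannot be told apart.

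**Figure D1:**
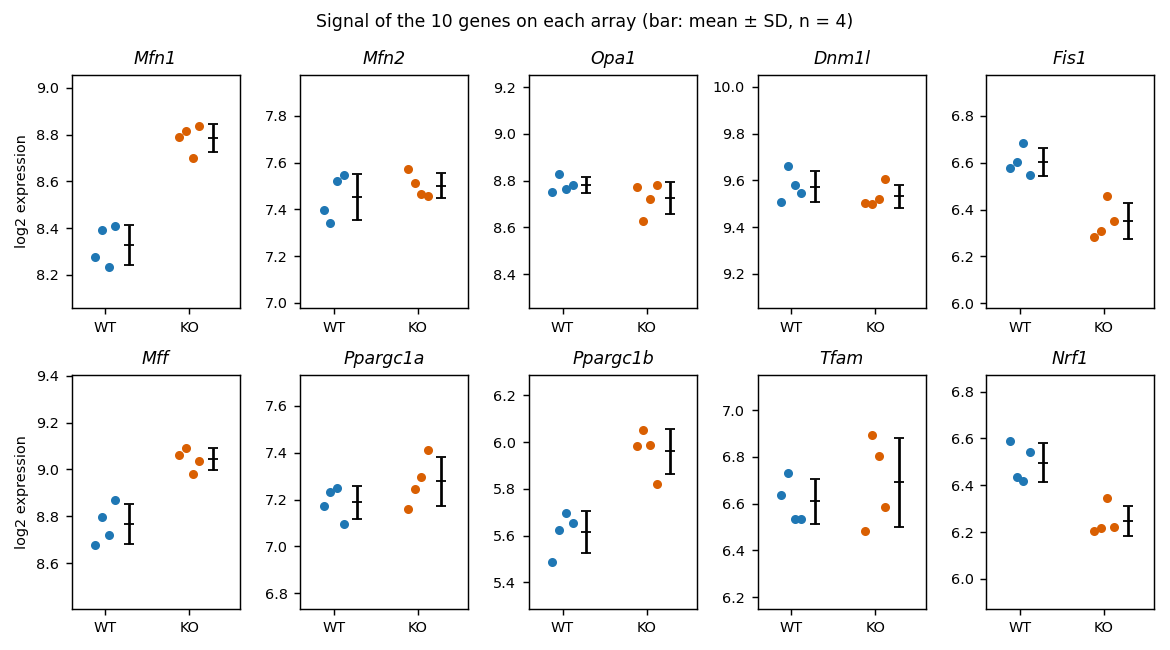
Log2 expression of each of the 10 genes on the 4 wild-type (WT, blue) and 4 knockout (KO, orange) arrays, with the mean and SD of each group in black. Every panel spans 1 log2 unit. The groups are apart for Mfn1, Fis1, Mff, Ppargc1b and Nrf1 and overlap for the other 5 genes.

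Promoter sequence was available for 9 of the 10 genes in RefSeq's mouse annotation (GRCm38.p6), as 250 bases before and 50 after each start; Ppargc1b was the exception. The promoters were searched on both strands for 4 motifs of regulators of mitochondrial biogenesis: the NRF1 core GCGCATGCG, the GABP site CCGGAAGTG, the CREB half-site TGACG and the ERR site TCAAGGTCA. The 120 bases before the first listed start are shown for the 4 genes that passed the test and had a sequence, and for Opa1, the gene with an NRF1 core. Each is on the plus strand, written 5′ to 3′, and capitals mark the letters of a searched motif.
Mfn1, chr3:32529362-32529481: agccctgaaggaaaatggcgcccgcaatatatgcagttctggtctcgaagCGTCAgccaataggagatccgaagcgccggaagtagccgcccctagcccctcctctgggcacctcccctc
Mff, chr1:82724770-82724889: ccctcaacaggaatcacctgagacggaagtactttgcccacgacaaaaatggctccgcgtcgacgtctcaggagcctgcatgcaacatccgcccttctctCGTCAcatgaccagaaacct
Fis1, chr5:136953155-136953274: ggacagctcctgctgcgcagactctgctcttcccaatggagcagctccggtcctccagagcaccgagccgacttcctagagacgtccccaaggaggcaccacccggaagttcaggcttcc
Nrf1, chr6:30047868-30047987: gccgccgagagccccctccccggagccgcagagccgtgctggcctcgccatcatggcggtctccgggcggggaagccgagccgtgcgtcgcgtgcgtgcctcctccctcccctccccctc
Opa1, chr16:29579214-29579333: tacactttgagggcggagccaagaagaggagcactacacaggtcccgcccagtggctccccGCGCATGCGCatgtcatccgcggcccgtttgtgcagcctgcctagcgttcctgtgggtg

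The CREB half-site stood on the minus strand in Mfn1 (from base -70) and in Mff (from base -20), the 2 genes that rose and had a sequence. Neither Fis1 nor Nrf1, the genes that fell, had it in the searched windows, and nor did Opa1, Dnm1l and Tfam, which did not pass. Mfn2 and Ppargc1a, which did not pass, had it too, and 20.8% of all 32851 listed promoters hold it. Mfn2 has 3 listed promoters. Counted by gene, with any listed promoter sufficing, 4560 measured genes held it and 12430 did not. Opa1, whose NRF1 core reads on both strands from base -59 and base -58, did not pass, and 1.75% of all promoters hold that core. A GABP site began at base 20 after the second listed start of Fis1, and 2.03% of promoters hold one. No promoter of the 9 genes held the ERR site, which 0.423% of all promoters hold. These matches describe the letters in the windows and show no binding.

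Among the fusion genes Mfn1 rose and its paralog Mfn2 did not pass. The wild-type arrays read 8.28, 8.39, 8.23 and 8.41 for Mfn1, and the knockout arrays read 8.79, 8.81, 8.70 and 8.83. Every knockout culture was above every wild-type culture. The means were 8.33 ± 0.086 (SD, n = 4) and 8.78 ± 0.059 (n = 4), a log2 fold change of 0.46 ± 0.064 (SE; limma adjusted p = 0.00102), and Mfn1 passed under all 17 alternatives. Its rise was 0.23 (adjusted p = 0.0370) after the median change of its neighbours on the chromosome, described further on, was subtracted. Here and below the subtracted median was taken as a fixed value, so p-values after subtraction leave out its own uncertainty.

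For Mfn2 the wild-type values were 7.40, 7.34, 7.52 and 7.55 and the knockout values 7.57, 7.51, 7.47 and 7.46. The 2 groups overlapped, with the wild-type cultures spread more widely. The log2 fold change was 0.05 (95% interval -0.10 to 0.20; limma adjusted p = 0.681). The change of Mfn1 exceeded that of Mfn2 by 0.41 ± 0.078 (SE, n = 4 per group), and the within-array difference of the 2 genes did not overlap between genotypes. An exact two-sided permutation test of that difference gave p = 0.0286, the smallest the design allows, which became 0.0571 when adjusted over the 4 gene pairs compared. With that floor, a pair could pass after adjustment only if most of the 4 pairs reached it. The test therefore cannot decide whether the mitofusins responded unequally.

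Opa1, the inner-membrane fusion dynamin whose NRF1 core is shown above, read 8.75, 8.83, 8.77 and 8.78 in wild type. In the knockout it read 8.77, 8.63, 8.72 and 8.78. The knockout values reached lower but overlapped the wild-type range, and the log2 fold change was -0.06 (95% interval -0.19 to 0.07; limma adjusted p = 0.586). A change of Opa1 as large as that of Mfn1 lies outside this interval.

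Of the 3 fission genes Mff rose, Fis1 fell and Dnm1l did not pass. Dnm1l, which encodes the fission dynamin DRP1, gave 9.51, 9.66, 9.58 and 9.55 in wild type and 9.50, 9.50, 9.52 and 9.61 in knockout. These ranges overlapped almost throughout. The log2 fold change was -0.04 (95% interval -0.18 to 0.09; limma adjusted p = 0.702), and it turned to 0.03 after subtraction of the neighbours' median.

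The DRP1 adaptors Mff and Fis1 differed in sign. Mff gave 8.68, 8.80, 8.72 and 8.87 in wild type and 9.06, 9.09, 8.98 and 9.04 in knockout. The knockout cultures all lay above the wild-type ones, with means of 8.77 ± 0.085 and 9.04 ± 0.047 (SD, n = 4 each). Mff rose by 0.28 ± 0.062 (SE; limma adjusted p = 0.0124), or 1.21-fold. It kept this call whichever single array was left out, but its change was -0.01 (adjusted p = 0.913) once the median change of its neighbours was subtracted.

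Fis1, an outer-membrane protein, gave 6.58, 6.61, 6.69 and 6.55 in wild type against 6.28, 6.31, 6.46 and 6.35 in knockout. All knockout values were below the wild-type values, with knockout culture 3 the closest. The means of 6.60 ± 0.060 and 6.35 ± 0.078 (SD, n = 4 each) gave a log2 fold change of -0.25 ± 0.063 (SE; limma adjusted p = 0.0198), or 1.19-fold lower. This call was lost without wild-type replicate 3 (adjusted p = 0.0540), without knockout replicate 1 (adjusted p = 0.0600), without knockout replicate 2 (adjusted p = 0.0577) and after the neighbours' median was subtracted (-0.11, adjusted p = 0.263). The change of Fis1 stood 0.53 ± 0.088 below that of Mff. The exact two-sided permutation p was 0.0286, and 0.0571 when adjusted over the 4 pairs. This test has the same limit as that of the mitofusins.

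Of the PGC-1 coactivators, Ppargc1b rose and Ppargc1a did not pass. Ppargc1b was the dimmest of the 10 probe sets and read 5.49, 5.62, 5.69 and 5.65 in wild type. In the knockout it read 5.98, 6.05, 5.99 and 5.82. The groups did not overlap, and the means were 5.61 ± 0.090 and 5.96 ± 0.097 (SD, n = 4 each). Ppargc1b rose by 0.35 ± 0.073 (SE; limma adjusted p = 0.00881), or 1.27-fold, and passed under all 17 alternatives.

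Ppargc1a gave 7.17, 7.23, 7.25 and 7.10 in wild type and 7.16, 7.25, 7.30 and 7.41 in knockout. The groups overlapped, with knockout culture 4 above the rest. The log2 fold change was 0.09 (95% interval -0.07 to 0.25; limma adjusted p = 0.456). It passed in 1 of 17 alternatives, the subtraction of the neighbours' median (0.24, adjusted p = 0.0460). The change of Ppargc1a stood 0.26 ± 0.11 below that of Ppargc1b, which did not pass (exact two-sided permutation p = 0.0857, also after adjustment over the 4 pairs).

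Nrf1, the nuclear respiratory factor that activates many genes of the respiratory chain, fell slightly. Its wild-type values were 6.59, 6.43, 6.42 and 6.54, and its knockout values were 6.21, 6.22, 6.34 and 6.22. The groups were apart, with knockout culture 3 nearest to wild type. The means of 6.50 ± 0.083 and 6.25 ± 0.065 (SD, n = 4 each) gave a log2 fold change of -0.25 ± 0.065 (SE; limma adjusted p = 0.0240), or 1.19-fold lower. The call was lost in 5 of the 8 fits that left out 1 array, namely without wild-type replicate 1 (adjusted p = 0.0622), wild-type replicate 4 (0.0644), knockout replicate 1 (0.0670), knockout replicate 2 (0.0648) or knockout replicate 4 (0.0583). It was also lost after subtraction of the neighbours' median (-0.21, adjusted p = 0.0518).

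Tfam, the packaging and transcription factor of mitochondrial DNA, varied most among the knockout cultures. It read 6.64, 6.73, 6.53 and 6.53 in wild type and 6.48, 6.89, 6.81 and 6.59 in knockout. Knockout cultures 2 and 3 were above all wild-type cultures and knockout culture 1 below them. The log2 fold change was 0.08 (95% interval -0.14 to 0.31; limma adjusted p = 0.652). The change of Tfam exceeded that of Nrf1 by 0.33 ± 0.11, with an exact two-sided permutation p of 0.0571, or 0.0762 when adjusted over the 4 pairs.

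**Figure D2:**
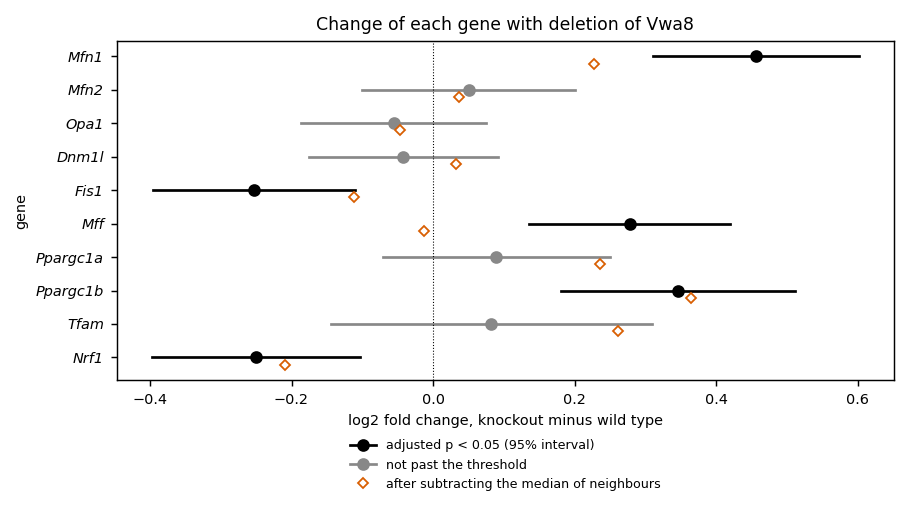
Log2 fold change of each gene (x axis, knockout minus wild type) with its 95% interval from limma, black where the adjusted p was under 0.05 and grey otherwise. Open diamonds show the change after subtraction of the median change among the 60 neighbours on the chromosome, which leaves Mff at -0.01 and Ppargc1b at 0.36.

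The chromosomal surroundings of the genes moved with several of these changes. For each gene the 30 nearest genes on each side that were brighter than the median were read from the same fit. Around Mff on chromosome 1, 30 of these 60 neighbours passed as higher and 4 as lower, with a median change of 0.29, and 31 of the 60 had a larger change than Mff. The neighbours of Mfn1 on chromosome 3 were also mostly raised, 28 higher and 7 lower with a median of 0.23, and 13 of them exceeded Mfn1. Around Fis1 on chromosome 5 the median was -0.14, and 15 of 60 neighbours had a lower value than Fis1.

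Ppargc1a lies on chromosome 5 as well, and its own 60 neighbours had a median of -0.15, with 3 higher and 19 lower. Tfam, on chromosome 10, had neighbours with a median of -0.18. By contrast the neighbours of Ppargc1b on chromosome 18 and of Nrf1 on chromosome 6 had medians of -0.02 and -0.04. Around Ppargc1b 15 neighbours passed as higher and 6 as lower, and around Nrf1 8 and 6. Shifts of this kind ran along some chromosomes. Among their genes brighter than the median, chromosome 1 had 265 higher and 68 lower of 629, and chromosome 3 had 243 and 51 of 524. Chromosome 5 had 44 higher and 215 lower of 708, and chromosome 10 had 40 and 234 of 580. The other chromosomes that hold the 10 genes were less one-sided. Chromosome 4 had 86 higher and 92 lower of 672, and chromosome 6 had 79 and 109 of 533. Chromosome 16 had 35 higher and 77 lower of 347, and chromosome 18 had 52 and 27 of 260. Of all brighter genes 37% passed in either direction. Gene copy number was not measured here, and its part in these changes was not tested.

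**Figure D3:**
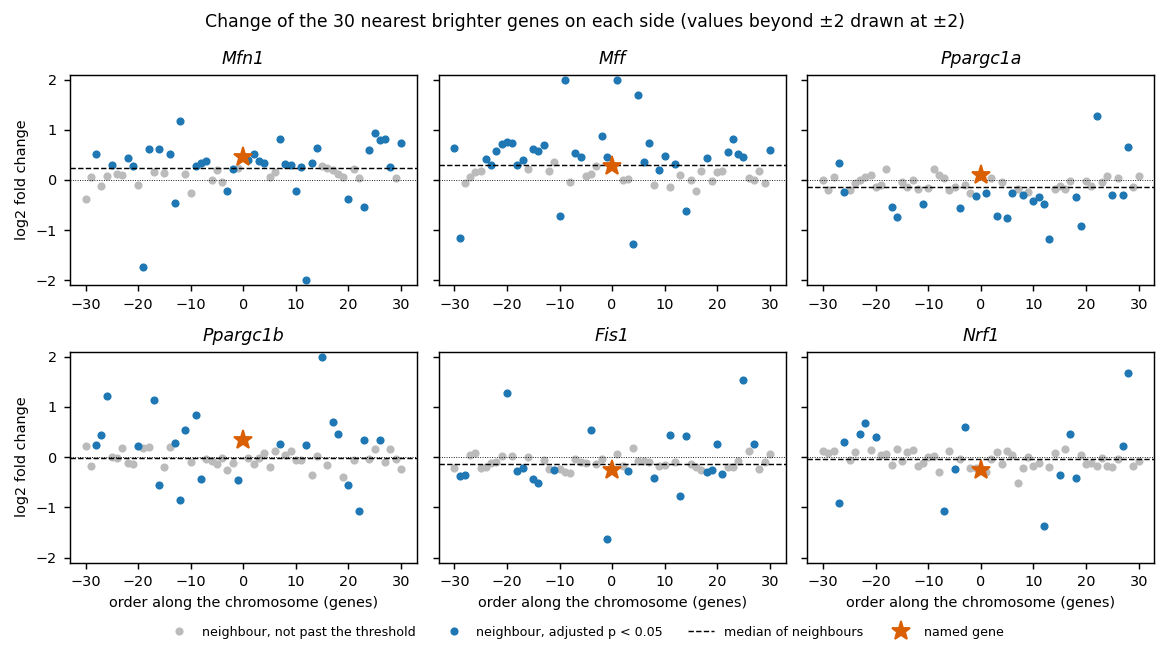
Log2 fold change (y axis) of the 60 neighbours, 30 to each side, of 6 genes, in order along the chromosome (x axis, genes). Stars mark the named gene and dashed lines the median of its neighbours, which is 0.29 for Mff and 0.23 for Mfn1 and close to 0 for Ppargc1b and Nrf1; values beyond ±2 are drawn at ±2.

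Some genes followed the 5 changed genes closely over the 8 arrays. Among the 11089 other genes brighter than the median, the highest Pearson correlations with Mfn1 were those of Larp1b (0.997), Eif2a (0.995) and Gin1 (0.995). For Mff they were Myo5b (0.996), Rap1gds1 (0.993) and St7l (0.989), and for Ppargc1b Man1a2 (0.979), C2cd2l (0.979) and Mapk14 (0.977). Nav1 (0.993), Hnrnpc (0.984) and Abhd6 (0.984) were most like Fis1, and Eif3d (0.987), Tspyl1 (0.986) and Necap2 (0.985) most like Nrf1. All of these were picked as the highest of many over arrays that share the genotype difference, so the values are a description. Larp1b also lies among the 60 neighbours of Mfn1, whose median change was 0.23, and Larp1b itself rose by 0.82.

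Other genes of the same processes were read from 7 lists, with 143 measured genes in all. Of these 30 rose and 19 fell in the knockout, or 34.3%, with a median of 0.03. The share is close to the 37% of genes brighter than the median that passed, and 135 of the 143 were that bright. Counts rest on limma with adjustment over all genes, as above.

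The list of fusion and inner membrane shaping genes had 3 of 17 higher and 1 lower (median -0.04). The inner-membrane proteases that act on OPA1 were among them: Afg3l2 rose by 0.35 ± 0.071 (SE) and Yme1l1, which cleaves OPA1, by 0.28 ± 0.062. Mtch2, an outer-membrane protein, rose by 0.23 ± 0.055. After subtraction of the neighbours' median neither Yme1l1 (0.18, adjusted p = 0.0754) nor Mtch2 (0.099, adjusted p = 0.253) passed. Parl, a rhomboid protease, fell by 0.20, a call lost in 7 of the 8 fits that left out 1 array and after that subtraction (-0.13). Oma1, the other protease that cleaves OPA1, stood at 0.05 ± 0.063 and did not pass; it is named here after its value was seen.

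In the fission list, 2 of 16 genes were higher and 3 lower (median -0.01). Mtfr2, a fission regulator, had the largest change, from 5.18 ± 0.16 in wild type to 4.12 ± 0.19 in knockout (SD, n = 4 each), a log2 fold change of -1.06 ± 0.11. The formin Inf2, which assembles actin where mitochondria divide, stood at -0.49 ± 0.086. Pgam5, a mitochondrial phosphatase, stood at -0.42 ± 0.065, or -0.20 (adjusted p = 0.110) with the mean of its probe sets. Akap1, which anchors the kinase that inhibits DRP1, rose by 0.40 ± 0.055 and Mief2, a DRP1 receptor, by 0.41 ± 0.074.

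Mitochondrial transport genes gave 4 of 9 higher and 2 lower (median 0.13). Armcx3, a mitochondrial trafficking protein, rose from 5.29 ± 0.11 to 6.46 ± 0.18 (SD, n = 4 each), or 2.25-fold. Its relative Armc10 went the other way, at -0.45 ± 0.059. Rhot1, the outer-membrane GTPase Miro1 that couples mitochondria to motors, rose by 0.39 ± 0.064, and its adaptors Trak1 and Trak2 rose by 0.35 ± 0.093 and 0.19 ± 0.054. Trak2 lost its call whichever array was left out, and Trak1 without wild-type replicates 1, 2 or 3 or knockout replicates 1, 2 or 3, so that 2 genes were called higher in those 6 fits; after subtraction of the neighbours' median Trak2 stood at -0.18 (adjusted p = 0.0466) and Trak1 (0.29) did not pass. The other lower gene, Clu, encodes clusterin, a secreted chaperone rather than a transport protein, and its change of -0.17 ± 0.050 lost its call whichever array was left out and after that subtraction (-0.026).

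Of 14 mitophagy genes, 2 rose and 3 fell (median -0.02). Pink1, the kinase that marks damaged mitochondria, rose by 0.40 ± 0.075 and the receptor Bnip3 by 0.41 ± 0.093. Tbk1, a kinase of autophagy receptors, stood at -0.36 ± 0.065, the autophagy-starting kinase Ulk1 at -0.31 ± 0.067 and the receptor Tax1bp1 at -0.24 ± 0.064. None of these 3 passed after the neighbours' median was subtracted, and Tax1bp1 lost its call without wild-type replicates 2 or 3 or knockout replicates 1 or 2.

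PGC-1 partners and upstream regulators moved both ways, 4 of 29 higher and 5 lower (median -0.05). Foxo1, a transcription factor that works with PGC-1alpha in gluconeogenesis, rose by 0.73 ± 0.075, from 7.74 ± 0.14 to 8.47 ± 0.026 (SD, n = 4 each). Ppara, the nuclear receptor of fatty acid oxidation, rose by 0.37 ± 0.065, the CREB coactivator Crtc2 by 0.33 ± 0.071 and the mitochondrial deacetylase Sirt3 by 0.36 ± 0.11. Lower were Hcfc1, a transcriptional cofactor, at -0.29 ± 0.055, the AMP kinase subunits Prkaa2 at -0.32 ± 0.074 and Prkab1 at -0.25 ± 0.065, Sirt1, the deacetylase that activates PGC-1alpha, at -0.28 ± 0.075, and Pparg at -0.23 ± 0.065. After subtraction of the neighbours' median Foxo1 stood at 0.48 and still passed (as it did at 0.44 with its probe sets averaged), while Crtc2 (0.20, adjusted p = 0.0886), Sirt1 (-0.11), Prkab1 (-0.14) and Pparg (-0.14) did not. Sirt3, Sirt1, Prkab1 and Pparg each kept their call in only 2 or 3 of the 8 fits that left out 1 array, and the count of lower genes was 2 without wild-type replicate 3, wild-type replicate 4 or knockout replicate 4, and 3 without wild-type replicate 1, knockout replicate 1 or knockout replicate 2. Esrra and Gabpa, the DNA-binding partners through which PGC-1 proteins act on respiratory genes, stood at -0.07 ± 0.070 and -0.07 ± 0.050 and did not pass; they are named after their values were seen.

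Genes of mitochondrial DNA replication and transcription gave 9 of 32 higher and 3 lower (median 0.12). Tfb1m, an rRNA methyltransferase of the mitochondrial ribosome, rose by 0.57 ± 0.083, from 7.46 ± 0.089 to 8.02 ± 0.14 (SD, n = 4 each), and Fastkd2, an RNA-binding protein, by 0.40 ± 0.062. Tfb2m, the transcription factor that works beside TFAM, rose by 0.39 ± 0.081, while Polrmt, the mitochondrial RNA polymerase, stood at -0.0032 ± 0.056 and did not pass; these last genes are named after their values were seen. The lower genes were Slc25a36, a nucleotide carrier, at -0.39 ± 0.058, the matrix protease Lonp1 at -0.32 ± 0.058 and the RNA helicase Supv3l1 at -0.31 ± 0.072. After the neighbours' median was subtracted Fastkd2 stood at 0.10 and Supv3l1 at -0.13, and neither passed.

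Known targets of the PGC-1 proteins and NRF1 gave 6 of 26 higher and 2 lower (median 0.09). G6pc, which releases glucose from hepatocytes, rose by 2.62 ± 0.092, Acadm of fatty acid oxidation by 0.67 ± 0.059 (0.43 after subtraction of the neighbours' median) and Lpin1 by 0.48 ± 0.052. Fmr1, which encodes an RNA-binding protein, stood at -0.55 ± 0.057 and Cs, citrate synthase, at -0.41 ± 0.069. Also higher were Sod2 at 0.32 ± 0.058 and the respiratory-chain genes Cox5b at 0.39 ± 0.073 and Ndufs8 at 0.27 ± 0.066. The neighbours of these genes had median changes of -0.004, 0.35 and 0.07 in the same order. Cycs, which encodes cytochrome c, and Alas1, which starts heme synthesis, are textbook targets that did not pass, at 0.10 ± 0.064 and 0.05 ± 0.071. Pck1 and Fbp1, genes of gluconeogenesis like G6pc, did not pass either, at 0.07 ± 0.15 and 0.17 ± 0.067. Both were dimmer than the median gene. Sod2, Cox5b, Ndufs8, Cycs, Alas1, Pck1 and Fbp1 are named after their values were seen.

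**Figure D4:**
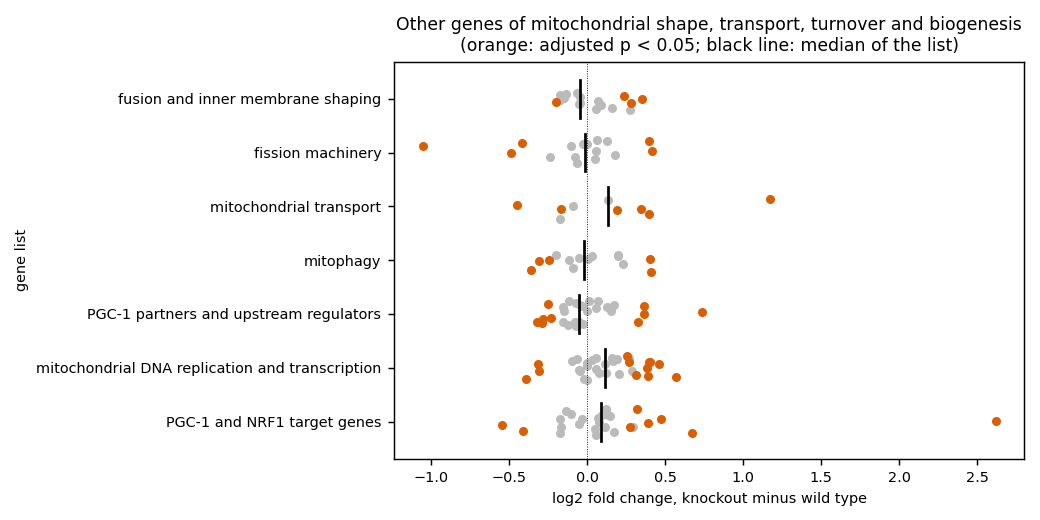
Log2 fold change (x axis, knockout minus wild type) of 143 other genes in 7 lists (y axis), orange where the limma adjusted p was under 0.05, with the median of each list as a black line. Changed genes lie on both sides of 0 in every list, and the list medians run from -0.05 to 0.13.

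Across the array, genes whose promoter held the NRF1 core were called in both directions. Of 451 such genes 14.9% were higher and 13.1% lower, against 10.9% and 10.7% of 16539 genes without it. The genes with the core were brighter, with a median level of 7.10 against 4.66, and dim genes pass less often. Of the 513 genes with the GABP site, also the brighter ones (7.37 against 4.63), 13.5% were higher and 15.2% lower, against 10.9% and 10.6% of 16477 without it. With the CREB half-site 13.5% of 4560 genes were higher and 13.3% lower, against 10% and 9.8% of 12430 genes without it, which were dimmer (median level 4.28 against 6.34). Of the 62 genes with the ERR site 8.06% were higher and 4.84% lower, against 11% and 10.8% of 16928 without it, and here the genes with the site were the dimmer ones (3.97 against 4.73). These differences were not tested.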

How the data were processed

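The deposited values, from 0.44 to 13.6, were taken as log2 from their range; a probe set has 1 on each array. How they corrected background, normalized and summarised was not given in the sources used here, and nothing was added. A dim probe set may reflect no expression. Of 41345 probe sets, 23521 had 1 gene symbol, 1814 several and 16010 none listed. Each of 22180 genes was represented by its probe set with the highest mean over 8 arrays.

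Genotypes were compared with limma 3.58.1 (R 4.3.3) on all 8 arrays, two-sided, adjusted by Benjamini-Hochberg over all genes. Gene pairs were compared by exact permutation over 70 arrangements. Members and lists were chosen with earlier results of these data known. The related lists held 156 symbols, of which 143 were measured. Genes named from a list were its 4 smallest adjusted p and every called gene where 5 or fewer passed in a direction. Alternatives were the replicate block, quantile normalization, median centring, trend with robust variances, array weights, removal of the dimmest 25% or 50%, averaging the probe sets of a gene, subtraction of the neighbours' median change (21994 genes had a position) and leaving out each array. The fit was tested on simulated data.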

Additional observations from a re-analysis of the deposited data

Results flagged for a closer look

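Of 100 groups of 4 arrays tested, 7 had a value apart from the rest, and chance gives about 5% of groups. The groups were those of Vwa8, the 10 genes and the genes named from the lists by the rule above. Nrf1 read 6.34 in knockout replicate 3, against 6.21 to 6.22 in the other knockout cultures. Ppara read 7.13 in knockout replicate 3, below 7.31 to 7.35. In knockout replicate 2 Trak2 read 9.39, above 9.31 to 9.32, and Lonp1 8.29, above 8.16 to 8.17. Hcfc1 read 9.73 in wild-type replicate 3, above 9.62 to 9.63. In wild-type replicate 1 Supv3l1 read 7.96, above 7.76 to 7.79, and Cs 10.32, above 10.20 to 10.22.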

How the results depend on the processing

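Of the 10 genes 5 passed. With the neighbours' median change subtracted 3 passed (Mfn1, Ppargc1b and Ppargc1a), Mff moved to -0.013, Dnm1l to 0.033 and Trak2 to -0.18, and the cause was not tested. Leaving out 1 array gave 3 to 5 of the 10, with 3 without knockout replicate 1 or knockout replicate 2. The labels do not state that replicate numbers pair the cultures. Deviations of same-numbered arrays of the 2 genotypes correlated at -0.04 to 0.14, and those of differently numbered arrays at -0.19 to 0.12. With 4 arrays a group these values cannot tell whether the numbers pair the cultures. With a replicate block 3717 genes passed in place of 4626. In that fit 4 of the 10 passed, Nrf1 not among them (limma adjusted p = 0.0810), and 11 listed genes were lower in place of 19. Prkaa2, Mtch2 and Supv3l1 were among the listed genes that lost their call in it. Quantile normalization, median centring, trend with robust variances, array weights and both filters on dim probe sets left the same 5 calls; each of the 10 genes has 1 probe set, so averaging probe sets cannot change its values. With 4 arrays a group, the 95% intervals of the 10 genes reached 0.13 to 0.23 to each side of the estimate.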
